A study of Mus musculus with 18 samples.

Results

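High polysome libraries of Ddx6 knockout (KO) and wild-type (WT) mouse embryonic stem cells (ESCs) were compared to ask which mRNAs were gained or lost among heavily translated messages when DDX6 was absent. The comparison used 6 of the 18 libraries in the series, 3 per genotype, chosen by genotype and gradient fraction alone. Of 51467 genes in the count table, 12705 reached at least 3 CPM (read counts scaled to a common library size) in 3 or more of the 18 libraries and were tested. Both genotypes were V6.5 ESCs held in the naive state with serum, LIF and the kinase inhibitors PD0325901 and CHIR99021 (2i). KO cells carried a CRISPR-Cas9 disruption of Ddx6 and came from 2 clones, so that KO gradient 1 was clone 1 and KO gradients 2 and 3 were clone 2. All cells received cycloheximide at 100 μg/ml for 2 minutes, and lysates were separated on gradients of 10% to 50% sucrose. The high polysome pool held mRNAs with 4 or more ribosomes, the low polysome pool those with 2 to 4, and the monosome pool those with a single ribosome. The labels do not say that gradients came from separate cultures, so the tests measure the spread between these gradients, which may be technical, and the clone cannot be told apart from the gradient.

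DDX6 is an RNA helicase of processing bodies that joins the CCR4-NOT deadenylase complex to decapping factors and to repressors of translation, and it acts downstream of microRNAs. An mRNA is found in the heavy part of a gradient when many ribosomes sit on it at once, so its level there depends both on how much of the mRNA the cell holds and on how densely it is loaded. A long coding region has room for more ribosomes than a short one. A CPM value in the high polysome is therefore a measure of abundance among heavily loaded mRNAs and not of translation per mRNA. Fewer cells expressing a gene and less mRNA per cell cannot be told apart in these bulk libraries.

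ESC miRNAs of the ESC-specific cell cycle regulating (ESCC) group share 1 seed, and their known targets were among the genes followed here. Their mature sequences, from RefSeq on GRCm38.p6, are printed with seed bases 2 to 8 in capitals to show the stretch that pairs with a target.
mmu-miR-291a-3p: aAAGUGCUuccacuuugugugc
mmu-miR-294-3p: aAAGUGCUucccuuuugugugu
mmu-miR-295-3p: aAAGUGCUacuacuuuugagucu
mmu-miR-302b-3p: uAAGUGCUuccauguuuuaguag
mmu-miR-302d-3p: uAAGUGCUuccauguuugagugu
The first 3 lie on chromosome 7 and the other two on chromosome 3.

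The 6 high polysome libraries held 8055321 to 10289531 gene counts each. The first principal component of their log2 CPM values carried 76.6% of the variance and separated the genotypes. The 10 ESC markers examined were all tested and summed to 4696 to 5747.5 CPM in WT and 3301 to 4320 CPM in KO. Most of the fall in this sum lay in 1 marker, Dppa5a, with a mean of 1992 CPM in WT and 826 CPM in KO. Of the 10 markers, 4 were called lower and 1 higher. Marker lists of other cell types had summed levels of 27.8 to 36.1 CPM in WT and 46.2 to 67.2 CPM in KO for primitive endoderm, 164 to 204 and 228 to 273 CPM for trophectoderm, 8.58 to 15.0 and 11.7 to 18.2 CPM for mesoderm, 93.0 to 116 and 84.4 to 121 CPM for neural cells, and 16 to 17.7 and 14.2 to 17.1 CPM for fibroblasts. Tpbpa, Neurog2, Fabp7, Col3a1 and Postn had no read in any of the 6 libraries. Ddx6 stood at 187, 201 and 183 CPM in WT gradients 1 to 3 and at 55.3 CPM in KO clone 1 against 9.68 and 13.1 CPM in the gradients of clone 2. All KO libraries lay below all WT libraries, and the single gradient of clone 1 kept more Ddx6 reads than those of clone 2. The fitted log2 change was -3.32 ± 0.49 (SE, adjusted p = 1.7e-05).

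Of the 12705 genes, 3215 were higher in KO (25.3%) and 2687 were lower (21.1%) at an adjusted p below 0.05, 46.5% in all. Most called changes were below 1 on the log2 scale in absolute value, as 2162 of the 5902 called genes passed it, 1240 higher and 922 lower. A value of 2 was passed by 321 higher and 221 lower genes. Every KO library lay above every WT library for 29% of genes and below every WT library for 26.1%. Scaling sets the level called no change, and the higher genes made up 54.5% of calls here against 47.5% with size factors of DESeq2. Changes are therefore relative to the typical mRNA of the high polysome.

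A few mRNAs went from nearly absent to clearly present. Under 1 CPM in all 3 WT libraries and at 10 CPM or more in all 3 KO libraries were 9 genes, and the reverse held for 1 gene. Spry4, a feedback antagonist of receptor tyrosine kinase signalling, had 0, 0.20 and 0.188 CPM in WT and 14.6, 11.8 and 12 CPM in KO. Bdkrb2, the bradykinin B2 receptor, had 0.385, 0.80 and 0.753 CPM in WT and 39.8, 42.0 and 46.4 CPM in KO. The genotypes were far apart for both, with 4 reads of Spry4 and 19 of Bdkrb2 in the WT libraries together against 357 and 1197 in KO. The log2 changes were 6.36 ± 0.53 (SE, adjusted p = 1.1e-08) for Spry4 and 5.95 ± 0.46 (SE, adjusted p = 3.8e-09) for Bdkrb2. The other gained genes were Gpr39, a zinc-sensing G protein-coupled receptor, Fcgr2b, an inhibitory Fc receptor, Krt7, a keratin of simple epithelia, Ecm1, a secreted matrix protein, Arhgef5, an exchange factor for small GTPases, Slc25a31, the germline ADP/ATP carrier of mitochondria, and Oasl1, an interferon-induced gene. Their KO means ran from 10.9 CPM for Fcgr2b to 17.8 CPM for Oasl1. The lost gene was Gtsf1l, a relative of a germline zinc finger factor, with 27.3, 23.3 and 25.1 CPM in WT and 0.668, 0.217 and 0.716 CPM in KO (log2 change -5.56 ± 0.43, SE, adjusted p = 3.8e-09).

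**Figure D1:**
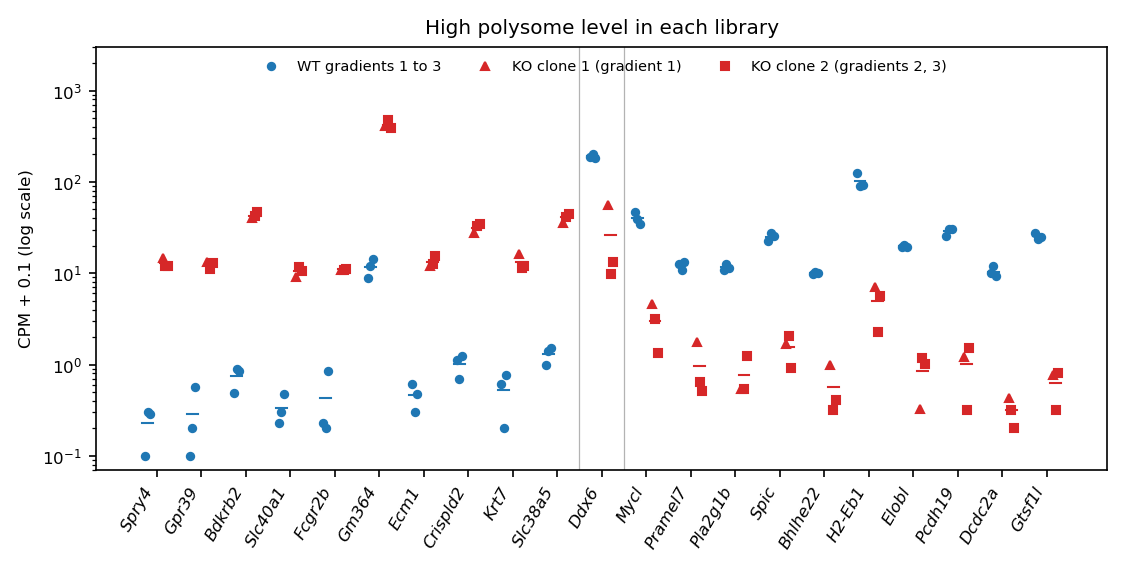
Level of the 10 most raised and the 10 most lowered genes, with Ddx6 between them, in each high polysome library (points, CPM + 0.1 on a log scale) and the mean per genotype (short lines). KO clone 1 is drawn as triangles and clone 2 as squares. Ddx6 lies at 55.3 CPM in the gradient of clone 1, above the gradients of clone 2. Both sets of 10 came from called genes with a mean of at least 10 CPM in the higher genotype and no overlap.

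The 10 most raised genes came from called genes with a mean of at least 10 CPM in KO and no overlap between genotypes. Of the 10, those starting above 1 CPM on average in WT were Gm364 and Slc38a5. Gm364, a predicted gene on the X chromosome, had 8.86, 12 and 14 CPM in WT and 409, 476 and 388 CPM in KO. Slc38a5, an amino acid transporter, had 0.898, 1.30 and 1.41 CPM in WT and 35.7, 41.6 and 44.7 CPM in KO. No library crossed the gap for either gene, and the log2 changes were 5.18 ± 0.21 (SE, adjusted p = 6e-13) and 5.01 ± 0.36 (SE, adjusted p = 1.6e-09). The iron exporter Slc40a1 and the secreted protein gene Crispld2 completed the 10, at log2 changes of 5.22 and 5.07.

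The 10 genes most lowered had, by the rule that chose them, a mean of at least 10 CPM in WT. By the same rule they lay below every WT library in every KO library. H2-Eb1, a class II histocompatibility gene, had 124, 89.6 and 93.1 CPM in WT and 7.02, 2.17 and 5.52 CPM in KO. Mycl, a MYC family transcription factor, had 46.8, 39.1 and 34.6 CPM in WT and 4.45, 3.04 and 1.23 CPM in KO. Spic, an ETS family transcription factor, had 22.2, 27.2 and 25.2 CPM in WT and 1.56, 1.96 and 0.818 CPM in KO. The genotypes did not overlap in these genes, and the log2 changes were -4.50 ± 0.30, -3.95 ± 0.38 and -4.15 ± 0.33 (SE). Pcdh19, a protocadherin, fell by 5.2 on the log2 scale, Dcdc2a, a doublecortin domain gene, by 5.36, Elobl, an elongin B-like gene, by 4.86, Bhlhe22, a neural transcription factor, by 4.49, Pla2g1b, a secreted phospholipase, by 4.12 and Pramel7, a preimplantation gene, by 3.98.

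The most abundant mRNAs of the high polysome were also reordered. Of the 100 genes with the highest mean CPM in each genotype, 77 were shared, and these 100 held 18.2% of all CPM in WT and 19.3% in KO. Among the 77, 23 were called higher and 17 lower. Actb, cytoplasmic beta actin, moved from rank 2 to rank 1 with 6360 ± 1198 CPM in WT and 11215 ± 692 CPM in KO (SD, n = 3). Slc2a3, the GLUT3 glucose transporter, moved from rank 38 to rank 2 with 1716, 1410 and 1666 CPM in WT and 6608, 7903 and 8566 CPM in KO. Cdh1, E-cadherin, moved from rank 9 to rank 4 with 3217 ± 639 CPM in WT and 7155 ± 1581 CPM in KO (SD, n = 3). Arl6ip1, a shaper of endoplasmic reticulum (ER) tubules and the leading gene in WT, was at rank 8 in KO, with a mean that fell from 7036 ± 736 to 4182 ± 744 CPM (SD, n = 3).

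Of the 23 genes that entered the KO top 100, 15 were called higher, and of the 23 that left, 17 were called lower. Eif4g1, the scaffold of the cap-binding initiation complex, entered with 310, 259 and 331 CPM in WT and 743, 1114 and 991 CPM in KO. Its lowest KO library was above its highest WT library, a log2 change of 1.65 ± 0.15 (SE, adjusted p = 2.7e-08). Also entering were the chaperone gene Pdia4 (log2 change 1.26), the NuRD remodeller Chd4 (1.25), the ER calcium pump Atp2a2 (1.21), the saposin precursor Psap (1.19), the secreted glycoprotein gene Fstl1 (1.10), the taurine transporter Slc6a6 (0.95), the tight junction gene Cldn4 (0.95), the Golgi gene Glg1 (0.88) and the progranulin gene Grn (0.84). The call on Grn was lost when WT gradient 2 was left out (log2 change 0.56, adjusted p = 0.11) or when KO gradient 3 was (0.63, adjusted p = 0.11).

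Upp1 and Igfbp2, both with large losses, led the departures from the top 100. Upp1, uridine phosphorylase, had 1383, 924 and 1190 CPM in WT and 145, 80.8 and 113 CPM in KO. Igfbp2, an insulin-like growth factor binding protein, had 5236, 2877 and 3490 CPM in WT and 1247, 670 and 931 CPM in KO. The genotypes did not overlap for either, and the log2 changes were -3.39 ± 0.24 (SE, adjusted p = 8.6e-10) and -2.03 ± 0.21 (SE, adjusted p = 2.2e-07). Dut, the dUTPase, fell by 1.75 on the log2 scale, Bex1 by 1.66, the stem cell RNA-binding gene Dppa5a by 1.32, the prolyl isomerase Fkbp3 by 1.23, calponin Cnn3 by 0.92, calmodulin Calm2 by 0.71, the exon junction gene Rbm8a by 0.71 and the peroxiredoxin Prdx6 by 0.63. With WT gradient 2 left out Dppa5a and Calm2 lost their calls (adjusted p = 0.077 and 0.09), and the same held for KO gradient 3 (0.099 and 0.073).

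**Figure D2:**
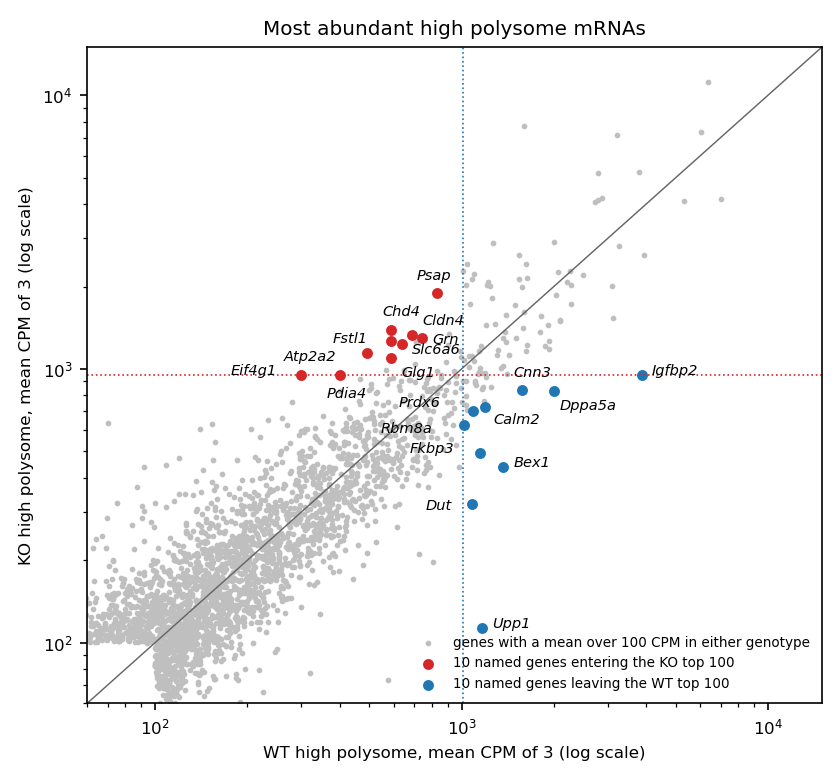
Mean CPM of 3 libraries in WT (x) and KO (y), both on log scales, for genes over 100 CPM in either genotype (grey), with the diagonal marking equal levels. Dotted lines mark the lowest mean of each top 100, 1009 CPM in WT and 949 CPM in KO, and the named genes that entered (red) or left (blue) lie on opposite sides of the diagonal.

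Gene groups were read against the background of 25.3% higher and 21.1% lower over all genes. Cytoskeletal and epithelial genes were among those most often higher. Of 29 tested genes of actin structures and of YAP or SRF regulation, 20 were higher and 2 lower, with a median log2 change of 1.17 against -0.01 over all genes. Krt8, a keratin of simple epithelia, had 1.93, 2.10 and 1.98 CPM in WT and 72.9, 58.1 and 49.7 CPM in KO, a log2 change of 4.85 ± 0.31 (SE, adjusted p = 3.1e-10). Its partner Krt18 rose by 3.72 on the log2 scale and Krt19 by 5.36. Among structural genes, the filamin gene Flna rose by 2.06, Actn4 by 1.95, the focal adhesion gene Zyx by 2.76 and the annexin gene Anxa3 by 3.8. Srf itself, the transcription factor behind many of these genes, was lower, with 165, 150 and 111 CPM in WT and 82.3, 87.1 and 68.5 CPM in KO (log2 change -0.83 ± 0.14, SE, adjusted p = 7.1e-05).

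Keratins are also markers of trophectoderm, the first epithelium of the embryo. Of 7 tested genes in a trophectoderm list, Krt7, Krt8, Krt18 and Gata3 were higher and none was lower, with 1 lower on leaving out WT gradient 1 or with DESeq2 size factors. Tfap2c, at 141 ± 18.2 CPM in WT and 183 ± 39.1 CPM in KO, Ascl2 and Eomes did not pass the test (adjusted p = 0.11, 0.98 and 0.073). The lineage regulators Cdx2, Elf5 and Hand1 did not reach the level needed for testing, with means of 0.170, 0.0958 and 0.265 CPM in WT and 1.51, 0.0361 and 0.642 CPM in KO. The share of trophectoderm cells, if any, in the change of the keratins was not tested. Of 8 tested primitive endoderm genes, 5 were higher and none lower: Sparc, Lama1, Lamb1, Dab2 and Amn, the first 3 of which encode matrix proteins, and 3 were higher without WT gradient 1. The defining regulators Gata4, Gata6 and Sox17 stayed under 3 CPM on average in both genotypes.

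Adhesion and matrix genes were mostly higher. In the adhesion list 12 of 21 tested genes were higher and 1 was lower (median log2 change 0.63). Cldn7, a claudin of tight junctions, had 25.3, 15.9 and 22.6 CPM in WT and 103, 81.1 and 83.1 CPM in KO (log2 change 2.09 ± 0.21, SE, adjusted p = 1.6e-07). Epithelial genes (Cdh1, Cldn4, Cldn6, Esrp1) and Snai1, a repressor of epithelial genes, at a log2 change of 1.46, were higher together, and the lower gene was Zeb1 (-0.89), whose call was lost on leaving out WT gradient 2, KO gradient 1 or KO gradient 2. Of 25 extracellular matrix genes, 14 were higher and 1 was lower, or 9 higher without WT gradient 2. Mmp14, a membrane-anchored matrix protease, had 35.3, 31.4 and 38.0 CPM in WT and 195, 199 and 210 CPM in KO, with little spread within a genotype and a log2 change of 2.53 ± 0.12 (SE, adjusted p = 5.9e-12). Laminin genes Lama1, Lama5, Lamb1 and Lamc1 rose by 0.71 to 1.40 on the log2 scale, while the laminin-binding nidogen gene Nid1 fell by 0.90.

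Solute carriers, glycolysis genes, lysosomal genes and chaperones had larger shares of higher genes than the 25.3% over all genes. Of 193 solute carrier genes, 87 were higher and 21 were lower (45.1% and 10.9%, median log2 change 0.33), and the list took 2.11% ± 0.106 of WT counts and 3.13% ± 0.0391 of KO counts (SD, n = 3, exact permutation p = 0.1, two-sided, the smallest that 3 against 3 allows). The glutamate transporter Slc1a1 and the bicarbonate transporter Slc4a5 were the most lowered named carriers, at -2.14 and -2.51. Among 22 genes of glycolysis, 9 were higher and 2 lower. Alongside Slc2a3 (2.26) these were the second glucose transporter Slc2a1 (1.35), the hexokinases Hk1 (0.91) and Hk2 (1.31), the enolases Eno2 and Eno3, Tpi1, Pkm and the lactate exporter Slc16a3, while Ldhb, at 74.2 CPM in WT and 26.6 CPM in KO, and Pfkp fell. Of 30 lysosomal genes, 17 were higher and 3 lower (median 0.58), led by acid alpha-glucosidase Gaa with 95.6, 79.0 and 116 CPM in WT and 204, 296 and 331 CPM in KO. Tfeb, a transcription factor for lysosomal genes, rose by 1.21. Of 27 chaperone genes, 10 were higher and 1 lower. The ER chaperone Hspa5 (BiP) had 930, 950 and 1146 CPM in WT and 1607, 2559 and 2697 CPM in KO (log2 change 1.15 ± 0.23, SE, adjusted p = 0.00033), and Calr rose by 0.90.

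**Figure D3:**
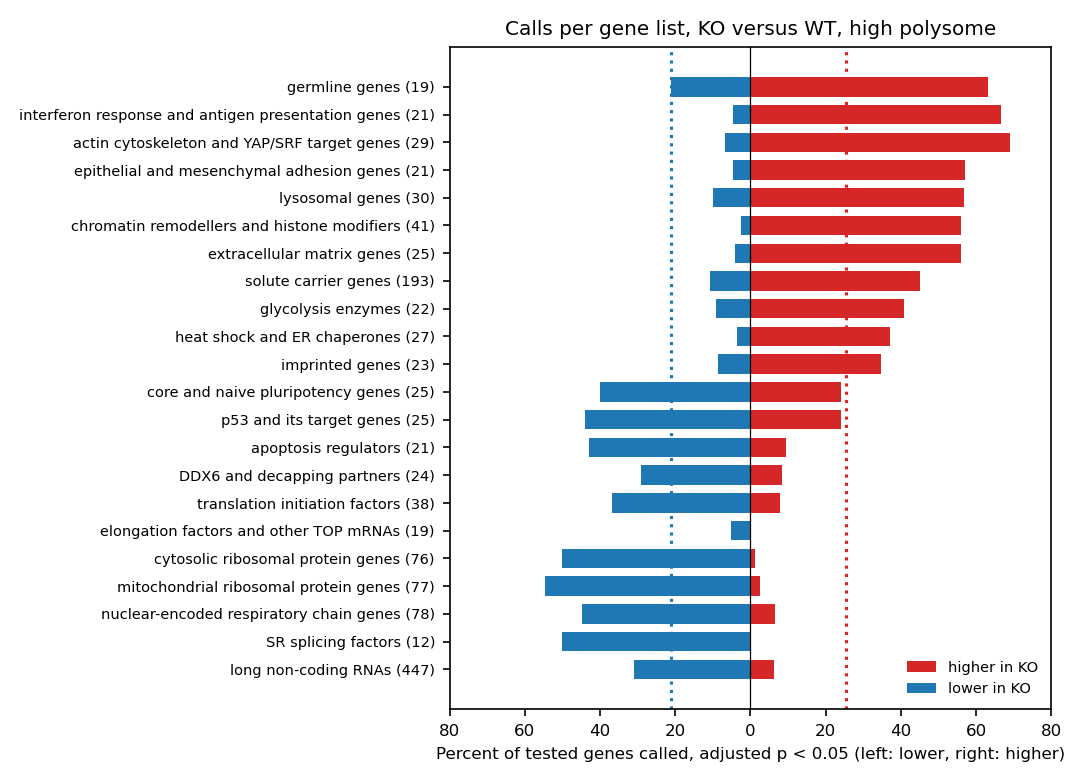
Percent of the tested genes in each list called higher (right, red) or lower (left, blue) in KO at an adjusted p below 0.05, with the number tested in brackets and dotted lines at the background of 25.3% and 21.1%. Cytoskeletal, interferon, germline, adhesion, lysosomal and chromatin lists extend past the background on the higher side, and ribosomal, respiratory chain and SR lists on the lower side.

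Interferon and antigen presentation genes were higher in 14 of 21 tested cases and lower in 1 (median log2 change 0.59). Tapbp, the tapasin gene that loads class I molecules, had 110, 74.9 and 90.2 CPM in WT and 436, 394 and 487 CPM in KO (log2 change 2.27 ± 0.17, SE, adjusted p = 3.5e-09). Class I genes H2-K1 and H2-D1 rose by 0.59 and 0.52 on the log2 scale. The exception within this list was Psmb9, an immunoproteasome subunit, at -1.25, in the opposite direction to Psmb10 at 1.09. The call on Psmb9 was lost on leaving out KO gradient 2. The class II gene H2-Eb1, named above among the most lowered genes, was not a member of the list.

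Germline and imprinted genes held some of the largest shifts. Of 19 tested germline genes, 12 were higher and 4 were lower (median log2 change 1.31). Rhox6, an X-linked homeobox gene, had 5.39, 7 and 6.69 CPM in WT and 226, 148 and 174 CPM in KO (log2 change 4.80 ± 0.20, SE, adjusted p = 6e-13). The neighbouring Rhox9 rose by 4.04 and the piRNA pathway genes Mov10l1 and Piwil2 by 3.17 and 2.84, whereas Rhox5 fell, from 116, 130 and 112 CPM to 86.3, 42.7 and 38.2 CPM. Of 23 imprinted genes, 8 were higher and 2 lower (34.8% higher), with 4 lower on leaving out KO gradient 1, 1 on leaving out KO gradient 3, and none on leaving out WT gradient 2 or 3. Peg10, a retrotransposon-derived gene, had 5.39, 6.70 and 5.46 CPM in WT and 144, 113 and 108 CPM in KO (log2 change 4.36 ± 0.20, SE, adjusted p = 4.5e-12). H19 stood at 32.1 CPM in the single gradient of clone 1 against 10.1 and 9.31 CPM in the gradients of clone 2. The call on H19 was lost without any 1 of the WT gradients (adjusted p = 0.078, 0.096 and 0.071). None of the 16 genes of the 2-cell-like state reached the level needed for testing.

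Pluripotency genes did not move as a block. Of 25 naive and core genes, 6 were higher and 10 were lower, or 5 lower without WT gradient 2 and 3 higher with 6 lower without KO gradient 3. Pou5f1 had 35.4, 37.8 and 40.9 CPM in WT and 41.2, 31.4 and 29.4 CPM in KO, so that the genotypes overlapped (log2 change -0.18 ± 0.16, SE, adjusted p = 0.37). Esrrb (0.10), Nanog (0.34) and Zfp42 (0.29) did not pass the test either, though Zfp42 was called without WT gradient 2 (0.45, adjusted p = 0.04). Sox2 was lower, with 537, 596 and 524 CPM in WT and 393, 455 and 390 CPM in KO (log2 change -0.42 ± 0.11, SE, adjusted p = 0.0044). Smaller shifts in Tfcp2l1 (-0.39), Sall4 (-0.36) and Klf4 (0.41) were called with all libraries, and each lost its call without WT gradient 2 (adjusted p = 0.079, 0.065 and 0.14). Sall4 and Klf4 also lost it when WT gradient 3 or either KO gradient 1 or 3 was left out. Tbx3, a transcription factor of the naive network, moved furthest upward, from 143, 170 and 152 CPM to 463, 483 and 445 CPM. Tcl1, an AKT co-activator, moved furthest downward, from 242, 215 and 217 CPM to 58.8, 72.2 and 67.9 CPM, followed by the let-7 antagonist Lin28a at -1.66. Among 13 genes of the formative or primed epiblast, 4 were higher and 5 lower, with Otx2 falling by 2.52 and Sox4 rising by 2.74.

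Signalling lists held genes called in both directions. Lefty2, a secreted Nodal antagonist and Nodal target, fell from 577, 541 and 606 CPM in WT to 60.5, 71.3 and 88.1 CPM in KO (log2 change -2.99 ± 0.24, SE, adjusted p = 7.6e-09). In the Nodal and TGF-beta list 6 genes were higher and 6 lower of 22 (27.3% each), near the shares over all genes. In the FGF and ERK list 9 were higher and 4 lower of 25, with Spry4 raised but Spry2 lowered (-1.91), and Etv4 raised (2.32) but Etv5 lowered (-1.13). In the Wnt list 11 of 29 were higher and 4 lower, the latter 9 with DESeq2 size factors and 8 in the high polysome libraries alone. Porcn, the acyltransferase that lets Wnt proteins be secreted, rose from 20.2, 16.9 and 17.5 CPM to 128, 119 and 142 CPM. Stat3, the effector of LIF, rose from 62.6, 73.4 and 75.5 CPM to 163, 207 and 200 CPM, while its target kinase genes Pim1 and Pim3 fell by 0.74 and 0.60 on the log2 scale.

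All listed ESCC miRNA targets except Rela carried at least 1 match to the seed printed above. The 8-base match searched was AGCACTTA, on the mRNA strand of the 3′ UTR of the principal Gencode M21 transcript, and it occurred in 3.14% of 11635 tested protein-coding genes. Windows around 1 match per target, with the match in capitals and the GRCm38 position, show where pairing could occur in 3 brakes on the cell cycle and in 2 signalling genes.
Cdkn1a, chr17:29100489-29100518, plus strand: gtgggtgtcaaAGCACTTAgtgggtctgac
Rbl2, chr8:91123819-91123844, plus strand: tttttcaataaAGCACTTAtaaatta
Lats2, chr14:57691075-57691104, minus strand: agtatggaaagAGCACTTAttttgtggata
Tgfbr2, chr9:116089869-116089898, minus strand: gggatagcgttAGCACTTgacaatcagtca
Dkk1, chr19:30546950-30546979, minus strand: tcctcagtgtgGCACTTAcctgtaaatgca
Rela held neither the 8-base match nor either 7-base match (AGCACTT or GCACTTA) in this transcript.

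Of the 9 targets, 6 were higher and 2 lower in the high polysome. The CDK inhibitor Cdkn1a had 569, 444 and 485 CPM in WT and 809, 798 and 902 CPM in KO (log2 change 0.75 ± 0.13, SE, adjusted p = 0.00011). The pocket protein Rbl2 had 5.65, 6.10 and 6.12 CPM in WT and 14.4, 14.2 and 13.9 CPM in KO (log2 change 1.24 ± 0.19, SE, adjusted p = 3.1e-05). The kinase Lats2, with the same 8-base match, went the other way, from 13.7, 15.5 and 13.7 CPM to 9.46, 8.37 and 7.26 CPM (log2 change -0.78 ± 0.18, SE, adjusted p = 0.0017). The receptor Tgfbr2 and the Wnt antagonist Dkk1, which held only 7-base matches, rose by 2.38 and 3.02 on the log2 scale. Rela, without a match, rose by 0.75, and Casp2, with 7-base matches only, rose by 0.66. Ei24, also with a 7-base match only, fell by 0.69. Mbd2, with the 8-base match, stood at 10.3 CPM in WT and 9.47 CPM in KO and did not pass the test (adjusted p = 0.70). Casp2 lost its call on leaving out WT gradient 1 or 2 or KO gradient 2 (adjusted p = 0.088, 0.062 and 0.068), and Ei24 without KO gradient 3 (0.069). Across all tested genes with a 3′ UTR, those with the 8-base match were higher in 27.7% and lower in 17% of cases with a median log2 change of 0.07, those with neither match in 26.8% and 21.3% with a median of 0.02.

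Brakes on the cell cycle and regulators of cell death were not uniformly affected. Cdkn1b, the p27 CDK inhibitor, had 71.2, 73.3 and 68.4 CPM in WT and 148, 148 and 141 CPM in KO (log2 change 1.04 ± 0.11, SE, adjusted p = 3.9e-07). With Cdkn1a and Rbl2 it made 3 higher of 14 brakes, against 4 lower. The shares were 21.4% and 28.6%, against 25.3% and 21.1% over all genes. Without KO gradient 1, 2 brakes were lower. Of 26 cyclins, CDKs and mitotic regulators, 9 were higher and 5 lower, including Ccne1 at 0.96 and Cdk6 at 1.57 among the former and Ccnd1 at -0.98 and Aurka at -0.64 among the latter. Of 25 genes of the p53 pathway 11 were lower and 6 higher, and of 21 apoptosis regulators 9 were lower and 2 higher. The apoptosis list had 6 lower and none higher on leaving out WT gradient 2, 6 and 1 on leaving out KO gradient 3, and 1 higher on leaving out WT gradient 1 or KO gradient 2. Bbc3, which encodes the pro-apoptotic protein PUMA, had 90.0, 66.1 and 68.1 CPM in WT and 31.6, 29.6 and 33.8 CPM in KO (log2 change -1.22 ± 0.18, SE, adjusted p = 1.5e-05). The lowered apoptosis genes included both pro-survival members, such as Bcl2l2 (-1.30) and Mcl1 (-0.73), and pro-death members, such as Bnip3l (-0.88). Atf4 and its target Chac1, both of the integrated stress response, fell by 1.12 and 2.15 on the log2 scale, within a list in which 8 of 21 genes were lower and 5 higher, or 2 higher without WT gradient 2 and 3 without KO gradient 3.

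Chromatin remodellers and histone modifiers were higher in 23 of 41 tested cases and lower in 1 (56.1% and 2.44%, median log2 change 0.49). Chd4, the ATPase of the NuRD complex, had 602, 458 and 698 CPM in WT and 1114, 1474 and 1567 CPM in KO (log2 change 1.25 ± 0.18, SE, adjusted p = 1.2e-05). Its relative Chd3 had 18.1, 12.8 and 19.97 CPM in WT and 62.0, 64.8 and 72.7 CPM in KO. Both genes were above the WT range in every KO library. The BAF subunits Arid1a (0.99), Arid1b (1.16) and Smarca4 (0.96), the acetyltransferase Ep300 (0.99) and the methyltransferase Kmt2a (0.94) were higher as well, and Atrx was the lower gene (-0.79). DESeq2 size factors left 3 lower genes and leaving out WT gradient 1 left 5. Of 12 genes for DNA methylation, 5 were higher and 1 lower, or 2 lower with DESeq2 size factors or library size alone, with Dnmt3a at 1.05 and Dnmt3b at -0.52. Of 23 Polycomb genes 5 were higher and 5 lower (21.7% each, near the shares over all genes), with Suz12 at -0.85. The lower count ran from 1 without WT gradient 2, through 3 without KO gradient 2 or KO gradient 3, to 8 with DESeq2 size factors.

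The machinery of mRNA decay and translation was examined because DDX6 works within it. Of 24 genes for DDX6 and its decapping partners, 2 were higher and 7 lower, Ddx6 itself among the latter. These shares were 8.33% and 29.2%, against 25.3% and 21.1% over all genes. Leaving out WT gradient 2 left 4 lower and leaving out KO gradient 3 left 3. DESeq2 size factors, library size alone and the replicate block each gave 10 lower. The higher genes were the decapping scaffold Edc4, with 33.0, 32.9 and 38.7 CPM in WT and 43.2, 77.9 and 70.9 CPM in KO, and the translational repressor Gigyf1 (log2 change 0.83 for both). Lsm2, a subunit of the decapping activator ring, fell by 0.82. In the miRNA pathway Tnrc6a and Tnrc6b, the GW182 proteins that recruit deadenylases to Argonaute, rose by 0.91 and 1.21. Of 17 tested genes for the CCR4-NOT and PAN2-PAN3 deadenylases, 3 were higher and 4 lower (17.6% and 23.5%). Tob2, a CCR4-NOT adaptor, rose from 49.5, 43.7 and 47.8 CPM to 93.5, 94.4 and 81.6 CPM. Btg2, a member of the deadenylase list, fell from 63.5, 53.6 and 48.4 CPM to 35.5, 31.0 and 28.9 CPM. Among 26 genes for 3′ UTR binding proteins 12 were higher and 5 lower, or 3 lower without WT gradient 2 or KO gradient 3, and Zfp36l1, which directs decay of AU-rich mRNAs, had 44.4, 53.5 and 42.9 CPM in WT and 193, 156 and 147 CPM in KO (log2 change 1.81 ± 0.14, SE, adjusted p = 4.3e-09).

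Most translation factor genes were not called. Of 38 initiation factor genes, 14 were lower and 3 higher, or 6 lower without WT gradient 2 and 7 without KO gradient 3. Eif2s2, the beta subunit of the factor that brings the initiator tRNA, had 650, 953 and 819 CPM in WT and 220, 154 and 215 CPM in KO (log2 change -2.04 ± 0.18, SE, adjusted p = 2.7e-08). The higher genes were Eif4g1, its relative Eif4g3 (1.79) and Eif5b (0.62), and leaving out KO gradient 1 raised their number to 6. Aminoacyl-tRNA synthetases, which charge tRNAs, were higher in 5 of 20 cases (25%, near the 25.3% over all genes) and lower in none, with Aars at 0.94 and Qars at 0.78. Leaving out WT gradient 1 gave 3 higher and 2 lower, leaving out KO gradient 3 gave 3 higher, and DESeq2 size factors gave 4 higher and 1 lower.

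Genes of the cytosolic and mitochondrial ribosome, the respiratory chain and SR splicing factors were lower more often than the 21.1% over all genes. Of 76 cytosolic ribosomal protein genes, 38 were lower and 1 was higher (50% and 1.32%, median log2 change -0.48), and the higher gene, Rpl9, lost its call when any 1 gradient was left out. They held 2.70% ± 0.0716 of WT counts and 1.92% ± 0.0221 of KO counts (SD, n = 3, exact permutation p = 0.1, two-sided). Rps3, the fifth most abundant mRNA in WT, fell by 0.59. Only uniquely aligned reads were counted, and many of these genes have processed pseudogenes that share their sequence, so their levels are uncertain. Of 77 mitochondrial ribosomal protein genes, 42 were lower and 2 higher (54.5% and 2.6%, median -0.41). Mrpl42 had 77.4, 80.6 and 76.1 CPM in WT and 35.0, 34.8 and 45.1 CPM in KO, and Mrps25 went against its group, from 137, 145 and 133 CPM to 242, 222 and 221 CPM. Of 78 nuclear genes of the respiratory chain, 35 were lower and 5 higher (44.9% and 6.41%, median -0.37), or 3 higher without WT gradient 3. Ndufa7, a complex I subunit, had 661, 565 and 588 CPM in WT and 327, 295 and 326 CPM in KO, while the larger subunits Ndufs1 and Sdha rose by 0.84 and 0.82. Of 12 SR splicing factor genes 6 were lower and none higher, or 3 lower without WT gradient 2 or KO gradient 3, and 1 was higher in the high polysome libraries alone. Of 447 long non-coding RNAs 138 were lower and 28 higher (30.9% and 6.26%, median -0.62), and 18 were higher without WT gradient 2.

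The groups that rose and those that fell also differed in coding length, and the KO effect in the high polysome followed that length across genes. The 1054 genes with coding regions of up to 500 nt had a median log2 change of -0.39, with 8.73% higher and 39.4% lower. Genes of 1000 to 1500 nt had a median of 0.02, and the 487 genes over 5000 nt a median of 0.34, with 39.8% higher and 9.24% lower. In the monosome the order was turned around, from a median of 0.17 in the shortest to -0.30 in the longest genes, and in the low polysome both ends were below 0. Over 11778 genes the log2 change and coding length had a Spearman correlation of 0.305 for the high polysome, of -0.2 for the monosome and of 0.013 for the low polysome, given as a description since genes share libraries. Taken singly over the WT mean, KO gradients 1, 2 and 3 gave 0.246, 0.298 and 0.332. The length of the 3′ UTR had a Spearman correlation of 0.064.

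**Figure D4:**
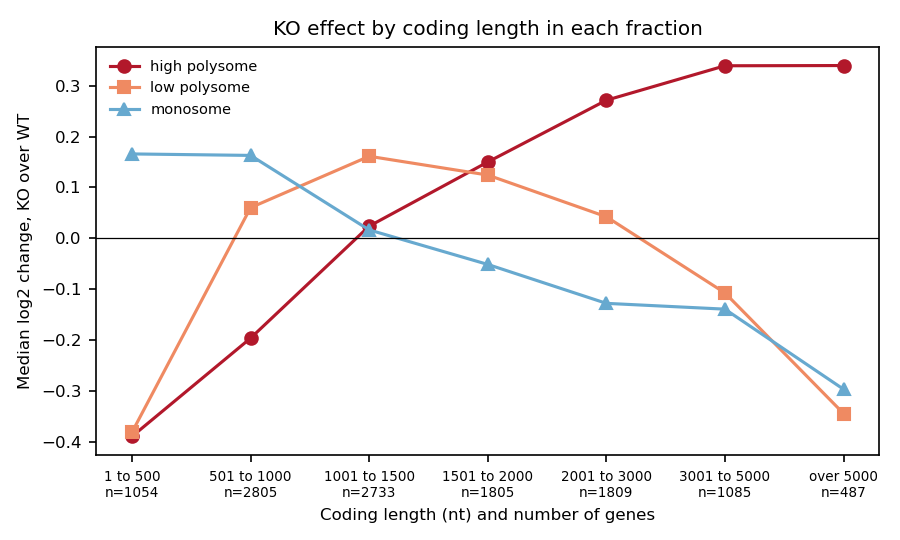
Median log2 change of KO over WT (y) for genes binned by coding length (x, with the number of genes) in the high polysome (circles), low polysome (squares) and monosome (triangles). The high polysome line climbs from -0.39 to 0.34 and the monosome line falls from 0.17 to -0.30.

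The median coding length was 5958 nt for the chromatin list and 4212 nt for the matrix list, against 1357.5 nt over all genes, 591 nt for mitochondrial ribosomal proteins, 451.5 nt for cytosolic ribosomal proteins and 433.5 nt for the respiratory chain. Of all genes over 5000 nt 39.8% were higher, against 56.1% of the chromatin list. Of all genes of 500 to 1000 nt 29.6% were lower, against 54.5% of the mitochondrial ribosomal list. Of all genes of up to 500 nt 39.4% were lower, against 50% of the cytosolic ribosomal list and 44.9% of the respiratory chain list. The actin list, at 1140 nt, the lysosomal list, at 1458 nt, and the germline list, at 1305 nt, lay near the overall median. The part of coding length in the change of each list was not tested.

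Whether an effect was larger among heavily loaded mRNAs than in the monosome was tested per gene in the same fit as the difference between both KO effects. The monosome libraries were shallower, with 2543617 to 4894677 counts each in WT and 7537656 to 7811071 in KO. Depth in the monosome thus followed genotype, and its part in the differences was not tested. The effect in the high polysome was above that in the monosome for 10.7% of genes and below it for 7.09%. Of the chromatin list 22 of 41 genes were above and none below, and of the extracellular matrix list 10 of 25 above and 1 below. Of the TOP mRNA list 15 of 19 were above, and of the aminoacyl-tRNA synthetases 13 of 20. No TOP mRNA was called higher in the high polysome, where the list median was 0.003 against -1.31 in the monosome. The synthetase medians were 0.19 in the high polysome and -0.63 in the monosome, where 13 of 20 were called lower. Mitochondrial ribosomal protein genes were below in 27 of 77 cases and above in none, and respiratory chain genes below in 37 of 78 and above in 3. Cytosolic ribosomal protein genes, though lower in the high polysome, were above in 22 of 76 cases and below in none, and their median log2 change in the monosome was further down, at -1.02. Eif4g1 showed one of the clearest differences, with a log2 change of 1.65 in the high polysome, 0.31 in the low polysome and 0.03 in the monosome (difference 1.62, adjusted p = 0.000101). Qars moved by 0.78, 0.10 and -1.19 and Stat3 by 1.43, 0.52 and 0.17 in the same order. Rbl2 was the ESCC target with a called difference, at 1.24, -0.33 and -0.39. Germline, lysosomal and actin genes were displaced in all 3 fractions, with medians of 1.31, 1.55 and 1.14 for the germline list from the high polysome to the monosome. Against the low polysome, the effect in the high polysome was above for 3.39% and below for 1.03% of genes.

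**Figure D5:**
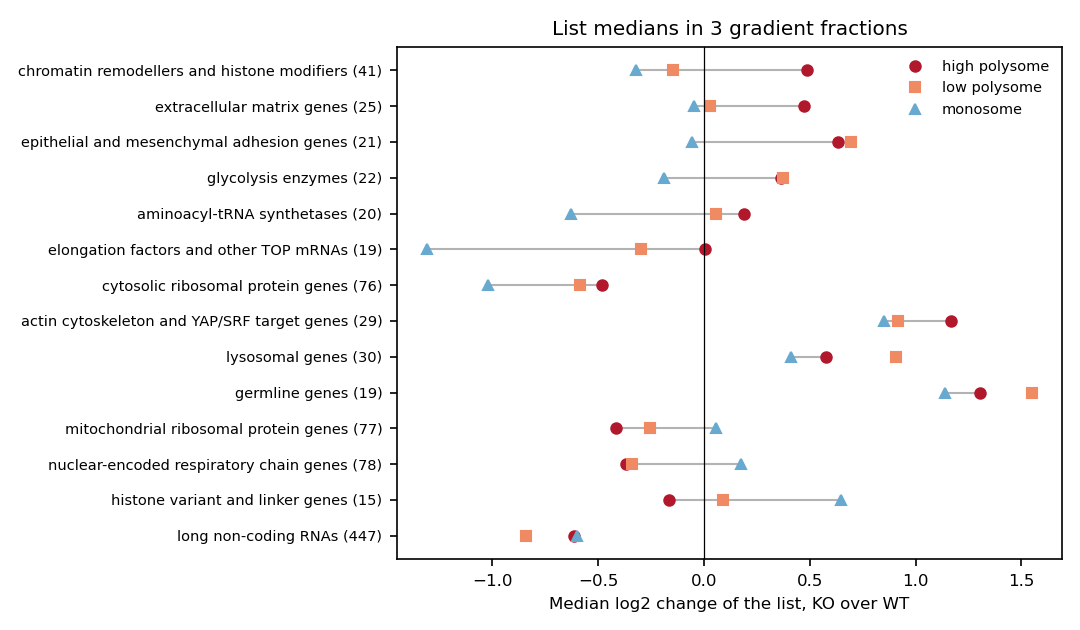
Median log2 change of KO over WT (x) of each list, with the number tested in brackets, in the high polysome (circles), low polysome (squares) and monosome (triangles), the line joining the first and last. The chromatin list runs from 0.49 in the high polysome to -0.32 in the monosome and the mitochondrial ribosomal list from -0.41 to 0.06.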

How the data were processed

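Polysome fractions of WT and Ddx6 KO ESCs were sequenced from the 3′ end (QuantSeq). The authors trimmed reads with cutadapt 1.14, aligned them to mm10 with STAR 2.5.3a keeping unique alignments, and deposited raw counts per gene and library from featureCounts 1.5.3, per the file headers and the submitters' processing notes. The 92 spike-in rows held 28 to 85 counts in the high polysome libraries and were dropped, so changes are relative. Genes with at least 3 CPM in 3 libraries were kept (99.6% of counts).

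CPM values were scaled by TMM (edgeR 4.0.16). The KO contrast in the high polysome and its differences from the other fractions were tested with limma 3.58.1 (voom) in R 4.3.3, over all 18 libraries as 6 groups, with Benjamini-Hochberg adjustment over all genes. All adjusted p-values are limma's. The edgeR and DESeq2 1.42.0 tests, other scalings, no filter, single gradients left out and a replicate block were alternatives. The fitting script was tested on simulated data. Library shares of gene lists used all annotated members and an exact permutation test.

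The rule named Ddx6, genes gained or lost across 1 and 10 CPM, genes crossing the top 100, the ESCC targets and core pluripotency genes. It also named the 10 largest changes each way among called genes averaging at least 10 CPM in the higher genotype without overlap. Up to 2 called members per list and direction were named too, with the same floor of 10 CPM. Other list members were named after their values were seen. Some genes that the rule takes are not reported here. Members and lists were chosen with earlier results of these data known. UTRs and coding lengths came from Gencode M21 (GRCm38), to which 51274 genes matched. No sample or value column was left out.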

Additional observations from a re-analysis of the deposited data

Results flagged for a closer look

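For 73 named genes the KO effect in the high polysome differed from that in the monosome when the difference itself was tested (limma, adjusted p below 0.05 over all genes), and 70 of them are given here. Values in brackets are log2 differences, the effect in the high polysome less that in the monosome, over 3 libraries per genotype and fraction. Among the genes most raised in the high polysome, the effect was further up there than in the monosome for Ecm1 (2.73), Spry4 (2.37), Bdkrb2 (2.36), Crispld2 (2.34) and Krt8 (1.61). In translation, RNA decay and protein folding the effect was further up for Qars (1.97), Eif4g1 (1.62), Upf1 (1.28), Aars (1.23), Rpl9 (1.14), Hspa5 (1.14), Gigyf1 (1.12), Edc4 (1.11), Tob2 (1.07), Smg9 (0.99), Tnrc6b (0.97), Psmd1 (0.81) and Cct7 (0.69). Among regulators of transcription, chromatin and the cell cycle it was further up for Rbl2 (1.63), Tbx3 (1.37), Zswim6 (1.32), Zfp282 (1.22), Sox4 (1.21), Chd4 (1.18), Dnmt3b (0.95), Zfp956 (0.87), Mcm2 (0.83), Rrm1 (0.80), Dnmt3a (0.62) and Tfcp2l1 (0.55). Among signalling, membrane, matrix and metabolic genes it was further up for Stat3 (1.26), Glg1 (1.26), Chrd (1.24), Lamb1 (1.18), Slc2a3 (1.15), Aldh18a1 (1.10), Gaa (1.09), Eno3 (1.08), Jak1 (1.08), Atp2a2 (1.06), Pfkp (1.04), Tapbp (0.86), Sdha (0.85) and Mmp14 (0.74).

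The effect was further down among heavily loaded mRNAs than in the monosome for the histone genes Hist1h2bc (-1.42), Hist3h2a (-1.28) and H2afx (-1.26). Among mitochondrial, proteasome and RNA processing genes it was further down for Mrpl42 (-1.21), Ndufa7 (-0.87), Psma7 (-0.84), Rbm8a (-0.77), Psma2 (-0.70), Lsm2 (-0.69) and Mrps25 (-0.52). Among genes of pluripotency, germline and abundant ESC transcripts it was further down for Dppa5a (-2.16), Rhox5 (-1.12), Igfbp2 (-1.01), Fkbp3 (-0.97), Calm2 (-0.94), Bex1 (-0.85), Dut (-0.81) and Tcl1 (-0.66). The rest, further down as well, were Bnip3l (-1.07), Eprn (-1.05), Fstl1 (-0.98), Gmnn (-0.83), Cldn4 (-0.79), Bbc3 (-0.79), Srf (-0.76) and Btg2 (-0.74). For Mrps25, Fstl1, Cldn4 and Hist1h2bc the high polysome level rose with KO, so a negative difference is not a fall. For Dnmt3b, Pfkp and Tfcp2l1 the high polysome level fell with KO, so a positive difference is not a rise. Fewer of these calls held with smaller sets of libraries: 42 of the 73 were lost without KO gradient 3, 40 without WT gradient 1, 37 without WT gradient 2, 27 without KO gradient 2, 22 without WT gradient 3 and 5 without KO gradient 1. Without the filter on low counts 19 were lost, with library size alone 9 and with DESeq2 size factors 3. WT monosome gradient 1 was the shallowest library, at 2543617 counts.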

How the results depend on the processing

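Calls were most sensitive to the threshold. At an adjusted p below 0.01, 2386 genes were higher and 1733 lower, and with an absolute log2 change over 1 added to the 0.05 threshold 1240 were higher and 922 lower. Leaving out 1 gradient gave 2555 to 3142 higher and 2067 to 2842 lower genes, and a log2 change of -4.07 to -2.84 for Ddx6, which was lowest without the gradient of clone 1. DESeq2 size factors gave 2856 and 3160, library size alone 2920 and 3027, no filter on low counts 3305 and 2866, edgeR's quasi-likelihood test 3137 and 2652, the DESeq2 Wald test 2835 and 3194, and the high polysome libraries alone 3131 and 2787. DESeq2 size factors moved the median of all genes from -0.01 to -0.08, and the higher share of calls was 47.9% without WT gradient 1 against 54.5% with all libraries. Of 204 named genes other than Ddx6, 172 kept direction and side of the threshold in all 14 alternative fits. Mbd2, not called in any, ran from -0.35 to 0.072 with 1 gradient left out, above 0 without WT gradient 2 (0.072) and without KO gradient 3 (0.063), against -0.14 with all libraries, and the cause was not tested.

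Gradient numbers did not pair the samples: deviations from the group means of same-numbered WT and KO high polysome libraries correlated at -0.049, 0.111 and 0.174. The replicate block gave 3253 higher and 2799 lower genes. With the gradient as a random effect, for fractions that share a gradient, the counts were 3230 and 2696.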
